A study of Mus musculus with 4 samples.

Results

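The 6 genes described here encode CXCL8, CXCL1, CXCL2, CXCL3 and CXCL5, the chemokines best known for attracting neutrophils, and CCL20. They were taken by symbol from the gene list of the deposited files, where they are 6 of 36601 human genes. CXCL8, CXCL1, CXCL2, CXCL3 and CXCL5 belong to the CXC chemokines that carry a Glu-Leu-Arg motif and bind CXCR2, and CXCL8 also binds CXCR1 strongly. CCL20 binds a different receptor, CCR6, which is carried by B cells, some dendritic cells and several T cell subsets, including Th17 cells and part of the regulatory T cells. In macrophages all 6 genes are classical targets of NF-kB, induced by microbial products and by interleukin-1 and TNF.

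The cells were human CD45+ cells sorted from tumors of MDA-MB-231, a human triple-negative breast cancer cell line, grown in the mammary fat pad of MISTRG mice whose human blood cells came from fetal liver CD34+ cells. Of 14 tumor-bearing mice, 7 were left untreated and 7 drank water with the drug maraviroc (300 mg/l) over 10 days, starting on day 21 after the injection of tumor cells. Tumors were taken on day 31, and every mouse carried a hashtag antibody whose name in the feature list gives its treatment (CTRL or MARAVIROC). Reaction 1 of droplet 3' RNA-seq held 4 untreated and 3 maraviroc mice, and reaction 2 held 3 untreated and 4 maraviroc mice. The model has human blood cells in a mouse host, so chemokines made by mouse cells were not measured, and mouse neutrophils were outside the sort.

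Reaction 1 was the shallower library. Barcodes that passed the limits (more than 600 genes, no more than 6000, and mitochondrial UMIs under the study's cutoff) numbered 27645 of 29120 in reaction 1 and 10161 of 13582 in reaction 2, and 136 barcode sequences occurred in both reactions. The cells with 1 hashtag that were kept numbered 11917 and 7900, with a median of 3020 and 9691.5 UMIs per cell. Monocytes and macrophages, gated by marker UMIs, made up 7290 of the kept cells in reaction 1 and 3849 in reaction 2. The myeloid marker list summed to 5979.0 and 5786.7 CPM there (counts per 1000000 UMIs of the class, reactions 1 and 2), with all 10 markers detected. The mast cell list summed to 17878.5 and 21030.2 CPM in the cells gated as mast cells, and the epithelial tumor list to 3706.0 and 3470.3 CPM in the cells gated as tumor cells. The tumor cells had passed the CD45 sort.

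Transcripts of myeloid genes were also counted in lymphoid cells. CXCL8, which monocytes and macrophages held at 1345.6 and 1151.4 CPM, was read at 124.7 CPM (95% exact Poisson interval 119.1 to 130.5) in the T and NK cells of reaction 1 and at 18.4 CPM (16.7 to 20.1) in those of reaction 2. In the T and NK cells the myeloid marker list summed to 414.3 CPM in reaction 1 and 130.9 CPM in reaction 2, so myeloid RNA was higher in the lymphoid cells of reaction 1 as well. RNA free in the droplets and pairs of cells from the same mouse in 1 droplet were not told apart as sources. A CXC chemokine level near these values was not read as expression. All intervals here cover counting error only. CXCL1, CXCL2 and CXCL3 are close paralogs, and how reads were split among them is uncertain.

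Monocytes and macrophages were divided, in a fixed order, into cycling cells, S100A12+ monocytes, GLUT1+ macrophages (SLC2A1 with genes of the hypoxia response), MT1G+ macrophages (the metallothionein MT1G), IL1A+ cells (at least 2 UMIs of IL1A), CXCL10-high cells, LYVE1+ macrophages, C1Q macrophages, other monocytes (FCN1 or VCAN) and a remainder. No chemokine of the 6 took part in a gate. The gates of S100A12+ monocytes and of cDC2, a dendritic cell class described below, required a low share of C1QA, C1QB and C1QC UMIs. That of C1Q macrophages required a high share. For each gene and each reaction the state with the highest level was either the IL1A+ cells or the GLUT1+ macrophages, in 12 of 12 cases. GLUT1+ macrophages were highest only for CXCL8 and CXCL5 of reaction 1. Over mice, MT1G+ macrophages had higher medians than GLUT1+ macrophages for CXCL1, CXCL2 and CXCL3 and lower ones for CXCL8, CXCL5 and CCL20. CXCL8 stood at 2970.7 CPM in IL1A+ cells and 3554.9 CPM in GLUT1+ macrophages of reaction 1, and at 4297.7 and 2829.9 CPM in those of reaction 2. The lowest CXCL8 level of a named state was in the CXCL10-high cells, at 718.2 and 639.3 CPM, still far above the lymphoid cells. The plot of levels by class shows these values beside the other lineages.

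**Figure D1:**
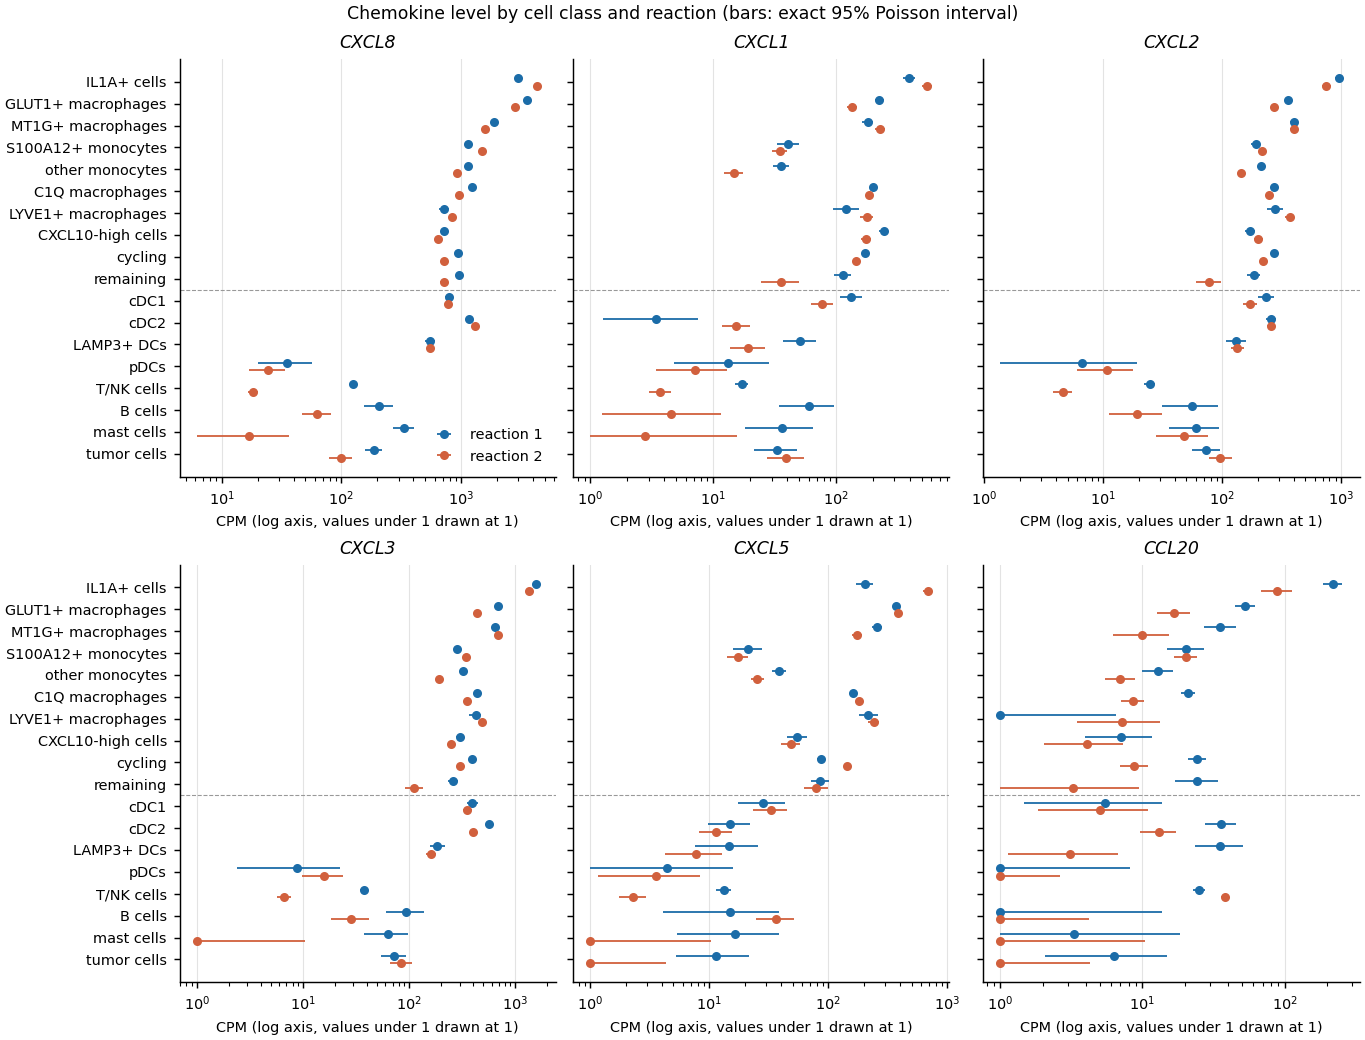
Level of each chemokine gene (1 panel a gene) in CPM of summed UMIs on a log axis, for each gated class of cells, with points for reactions 1 and 2 and bars for the 95% exact Poisson interval. Values under 1 CPM are drawn at 1, and a dashed line parts the monocyte and macrophage states from the other lineages. In each panel the IL1A+ cells or the GLUT1+ macrophages lie farthest to the right among the states above the line.

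IL1A+ cells were few, 70 in reaction 1 and 56 in reaction 2, and 5 mice held at least 10 of them (12 to 27 cells each). IL1A encodes interleukin-1 alpha, itself an inducer of these chemokines. In 5 of 5 mice CCL20, CXCL2, CXCL3 and CXCL8 were higher in the IL1A+ cells than in the other monocytes and macrophages of the same mouse. CCL20 stood at 353.1, 212.9 and 77.0 CPM in the IL1A+ cells of 3 untreated mice of reaction 1, at 19.1 CPM in an untreated mouse of reaction 2 and at 86.5 CPM in a maraviroc mouse of reaction 2. In the other monocytes and macrophages of these mice it stood at 68.6, 18.5, 16.2, 8.07 and 26.1 CPM, in the same order. The ranges over mice thus overlapped for CCL20, while each mouse showed the difference. The log2 fold change was 2.46 ± 0.26 (SE, n = 5 mice; edgeR quasi-likelihood test with the mouse as a block, adjusted p = 3.79e-10).

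CXCL3 showed no overlap between the IL1A+ cells and the other cells. It stood at 1714.4, 1193.7, 2037.7, 1587.1 and 2240.5 CPM in the IL1A+ cells of the 5 mice and at 602.1, 493.0, 543.4, 261.7 and 490.3 CPM in their other monocytes and macrophages (log2 fold change 1.98 ± 0.16, adjusted p = 1.02e-13). CXCL2 (1.76 ± 0.16, adjusted p = 9.19e-12) and CXCL8 (1.54 ± 0.15, adjusted p = 6.83e-11) were also apart in every mouse. CXCL8 reached 5736.6 CPM in the IL1A+ cells of the maraviroc mouse of reaction 2, against 1512.7 CPM in its other cells. CXCL1 rose by 1.65 ± 0.26 (adjusted p = 7.08e-06), in 4 of 5 mice, with 45.2 CPM against 156.6 CPM in the exception, and its adjusted p was 0.248 by DESeq2. CXCL5 stood at 391.7, 0.0, 35.0, 662.9 and 1007.5 CPM in the IL1A+ cells and was higher there in 3 of 5 mice (1.05 ± 0.37, adjusted p = 0.106). With 1 mouse left out at a time its log2 fold change ran from 0.44 to 1.65. In all, 5 of the 6 genes were called higher, where 2.16% of all genes tested were, and none was called lower. IL1A+ cells had a median of 9494.5 UMIs in reaction 1 and 11425 in reaction 2, against 3119.5 and 12125 in all monocytes and macrophages, and the part of the greater depth in reaction 1 was not tested.

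The order of the genes differed in GLUT1+ macrophages, of which there were 279 in reaction 1 and 262 in reaction 2. There CXCL5 and CXCL8 had the largest changes. CXCL8 ran from 1736.8 to 4314.9 CPM over 14 mice, with a median of 3251.6, against 699.8 to 1663.1 CPM in the other monocytes and macrophages, with a median of 1069.8. The groups did not overlap, and the log2 fold change was 1.61 ± 0.09 (SE, adjusted p = 2.01e-13). CXCL5 ran from 106.7 to 1184.6 CPM with a median of 324.5, against 46.5 to 176.0 CPM with a median of 116.6, and was higher in 13 of 14 mice (1.66 ± 0.18, adjusted p = 2.51e-08). CCL20 was higher in 10 of 14 mice, with a median of 28.6 against 9.79 CPM (1.2 ± 0.29, adjusted p = 0.00259). CXCL3 (0.69), CXCL2 (0.46) and CXCL1 (0.42, adjusted p = 0.0346) rose less. All 6 genes were called higher, beside 12% of all genes tested, and in reaction 2 by itself CCL20 (0.80, adjusted p = 0.224), CXCL2 (0.40, 0.112) and CXCL1 (0.26, 0.395) were not. In reaction 1 these cells had a median of 9488 UMIs against 3119.5 in all monocytes and macrophages, and the part of that depth was not tested.

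In MT1G+ macrophages CXCL3 (log2 fold change 0.70, adjusted p = 0.000536), CXCL2 (0.64, 2.37e-05) and CXCL8 (0.51, 9.69e-05) were called higher, beside 1.26% of all genes tested. CXCL8 had a median of 1593.0 CPM in them against 1188.7 CPM, and CXCL2 and CXCL8 were each higher in 13 of 14 mice. In reaction 1 by itself CXCL3 was not called (0.28, adjusted p = 0.501). The other 3 genes did not pass the test in both reactions together, with CXCL5 at a median of 194.5 CPM against 131.4 CPM. The median depth of MT1G+ macrophages, 3161 and 13133 UMIs, was close to that of all monocytes and macrophages.

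**Figure D2:**
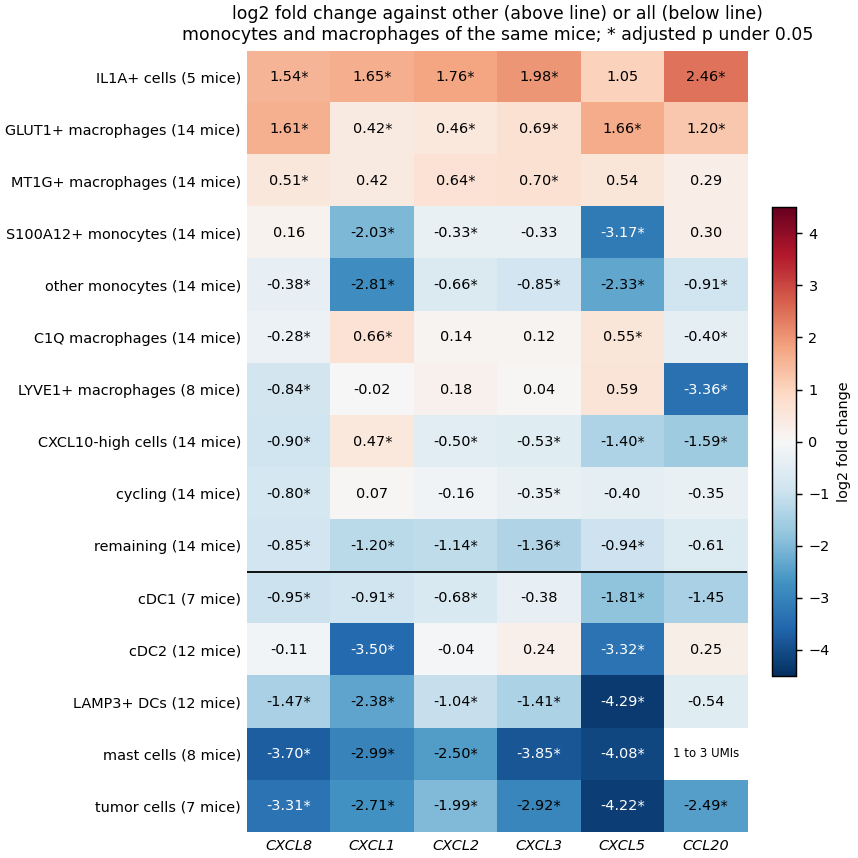
Log2 fold change of each chemokine gene (columns) in each class (rows) as a number and a colour from blue (lower) to red (higher), with a star for adjusted p under 0.05. Classes above the line were set against the other monocytes and macrophages of the same mice and classes below it against all of them. The IL1A+ and GLUT1+ rows are above 0 for all 6 genes and the mast and tumor rows are below 0, and CCL20 in mast cells has no value because it rests on 1 UMI.

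CXCL1 and CXCL5 were low in monocytes and higher in C1Q macrophages, as in several other macrophage states. In C1Q macrophages, which were the most numerous state with 3047 and 1162 cells, CXCL1 ran from 127.5 to 249.4 CPM (median 197.7) and was higher than in the other cells of the same mouse in 14 of 14 mice (log2 fold change 0.66, adjusted p = 3.08e-07). CXCL5 had a median of 172.1 CPM there against 90.7 CPM (0.55, adjusted p = 0.000536). These 2 genes were called higher beside 19.0% of all genes tested. CXCL8 fell by 0.28 and CCL20 by 0.40 on the log2 scale, beside 21.4% of genes called lower, and the call of CCL20 was lost by DESeq2 (adjusted p = 0.0577) and in each reaction by itself. C1Q macrophages held 40.1% and 40.3% of all CXCL1 UMIs of the kept cells and were 25.6% and 14.7% of those cells.

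S100A12+ monocytes had the reverse pattern. Their gate left out cells with a high share of C1QA, C1QB and C1QC UMIs, which the gate of C1Q macrophages required. The patterns of these classes are thus not independent, and the part of the gates in them was not tested. S100A12 encodes a calgranulin that marks classical monocytes. CXCL5 ran from 0.0 to 63.1 CPM over 14 mice (median 8.77) against 87.1 to 215.2 CPM in the other monocytes and macrophages (median 146.7). The groups did not overlap, and CXCL5 fell by 3.17 on the log2 scale (SE 0.23, adjusted p = 1.38e-12). CXCL1 was lower in 14 of 14 mice, with a median of 30.0 against 157.8 CPM (-2.03 ± 0.18, adjusted p = 7.52e-11), and CXCL2 fell by 0.33 (adjusted p = 0.0429). These 3 calls stood beside 26.4% of all genes called lower. CXCL8 did not pass the test, with a median of 1323.9 CPM in the S100A12+ monocytes against 1188.6 CPM (0.16 ± 0.12, adjusted p = 0.259). CXCL2 was not called in reaction 2 by itself (-0.12, adjusted p = 0.635). The median depth of these monocytes was 8101.5 UMIs in reaction 1 and 11400 in reaction 2, against 3119.5 and 12125 in all monocytes and macrophages.

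In the other monocytes, cells with FCN1 or VCAN that met none of the earlier gates, all 6 genes fell, beside 25.0% of all genes tested. CXCL1 had a median of 26.9 CPM against 177.8 CPM (-2.81) and CXCL5 a median of 32.2 against 155.0 CPM (-2.33), both lower in 14 of 14 mice. CCL20 (-0.91), CXCL3 (-0.85), CXCL2 (-0.66) and CXCL8 (-0.38) moved less. The order of the gates takes the cells of all earlier gates, C1Q macrophages among them, out of this class first. Without the order, the class held every monocyte or macrophage that met the FCN1 or VCAN gate. Only CXCL1 was then called lower and 3 genes were called higher, with CXCL3 at 0.54 and CXCL8 at 0.54. Of all genes 6446 were called there in either direction. The share by direction is not given here, so these counts are not read as a result about these genes. Which of the added cells made the change was not tested.

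CXCL10-high cells, which carry the interferon-induced chemokine CXCL10, had less of 5 of the 6 genes. CCL20 (log2 fold change -1.59), CXCL5 (-1.40), CXCL8 (-0.90), CXCL3 (-0.53) and CXCL2 (-0.50) were called lower, beside 10.9% of all genes tested. CXCL5 ran from 5.74 to 114.6 CPM in them and was lower in 14 of 14 mice. CXCL1 was called higher (0.47 ± 0.16, adjusted p = 0.0316, 9 of 14 mice), beside 6.25% of all genes, a call that DESeq2 did not make. In LYVE1+ macrophages, tested in 8 mice, CXCL8 fell by 0.84 and CCL20 had a median of 0.0 CPM against 15.2 CPM, beside 11.1% of genes called lower. Cycling cells had lower CXCL8 (-0.80) and CXCL3 (-0.35), beside 22.9% of genes called lower. In the remaining monocytes and macrophages all genes but CCL20 were called lower, beside 9.60% of all genes. The median log2 fold change of all genes lay within 0.1 of 0 in these fits except at -0.12 in IL1A+ cells, and at -0.15 in cDC1, -0.17 in LAMP3+ dendritic cells, -0.35 in mast cells and -0.13 in tumor cells, which are described next. All comparisons of states share cells, since each state is part of the group against which the others were set.

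Among dendritic cells, the genes separated. cDC2 (12 mice) kept CXCL8, CXCL3 and CXCL2 near the level of monocytes and macrophages and had little CXCL1 or CXCL5. The cDC2 gate also left out cells with a high share of C1QA, C1QB and C1QC UMIs, and its part in these levels was not tested. CXCL8 had a median of 950.2 CPM in cDC2 against 1161.2 CPM (log2 fold change -0.11 ± 0.12, adjusted p = 0.517), and CXCL3 a median of 447.8 against 322.8 CPM (0.24 ± 0.14, adjusted p = 0.214). CXCL1 ran from 0.0 to 28.1 CPM (median 6.72) against 60.3 to 179.1 CPM (-3.50, adjusted p = 5.14e-12). CXCL5 ran from 0.0 to 55.5 CPM against 71.4 to 196.9 CPM (-3.32, adjusted p = 1.07e-12). Neither gene overlapped between the groups, and 16.7% of all genes were called lower.

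In LAMP3+ dendritic cells, a mature state that carries CCR7, all genes but CCL20 were called lower. CCL20 had a median of 3.97 against 12.7 CPM and was lower in 10 of 12 mice, but was not called (-0.54 ± 0.43, adjusted p = 0.383). CXCL5 (log2 fold change -4.29), CXCL1 (-2.38), CXCL8 (-1.47), CXCL3 (-1.41) and CXCL2 (-1.04) were called lower in 12 mice, beside 16.2% of all genes. CXCL8 ran from 194.7 to 1501.9 CPM (median 400.4) and was lower than in monocytes and macrophages in 12 of 12 mice. In cDC1 (7 mice) CXCL5 (-1.81), CXCL8 (-0.95), CXCL1 (-0.91) and CXCL2 (-0.68) were called lower, beside 9.97% of all genes, and CXCL8 still had a median of 652.6 CPM. By DESeq2 1 of these 4, CXCL5, was called. Plasmacytoid dendritic cells held CXCL8 at 35.2 and 24.2 CPM in reactions 1 and 2, in the range of the lymphoid cells.

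Mast cells and tumor cells had little of any of the 6 genes. In mast cells (8 mice) CXCL8 ran from 0.0 to 574.0 CPM with a median of 65.8, against 1027.3 to 1662.2 CPM in monocytes and macrophages (log2 fold change -3.70 ± 0.27, adjusted p = 5.33e-40). CXCL5 (-4.08), CXCL3 (-3.85), CXCL1 (-2.99) and CXCL2 (-2.50) fell with it, and CCL20 was counted as 1 UMI in 134 cells of reaction 1 and 0 UMIs in 59 cells of reaction 2, which allows up to 8.43 CPM. All 6 genes were called lower, beside 22.6% of all genes tested. The call of CCL20 was lost with more than 1000 genes per cell (adjusted p = 0.0664), at hashtag quantile 0.95 (0.0814) and in reaction 1 by itself (0.136). Summed over cells, CXCL8 stood at 331.8 CPM in the mast cells of reaction 1 and at 16.9 CPM (6.19 to 36.7) in those of reaction 2. Myeloid markers summed to 1178.0 and 334.6 CPM in the same cells, and their part in the CXCL8 level of mast cells was not tested.

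In tumor cells (7 mice) CXCL8 ran from 96.5 to 318.0 CPM with a median of 148.4, against 1103.0 to 1891.2 CPM (-3.31 ± 0.21, adjusted p = 9.11e-20). CXCL5 (-4.22), CXCL3 (-2.92), CXCL1 (-2.71), CCL20 (-2.49) and CXCL2 (-1.99) were called lower as well, so that 6 of 6 fell beside 26.7% of all genes. In reaction 2, where myeloid markers summed to 96.7 CPM in the tumor cells, CXCL8 stood at 99.0 CPM (79.1 to 122.4), CXCL2 at 96.7 CPM and CXCL3 at 85.0 CPM. Each exceeded its level in the T and NK cells of that reaction, at 18.4, 4.58 and 6.67 CPM. These values pool 53 tumor cells, 2 to 19 per mouse, and 1 mouse of that reaction had at least 10. CCL20 and CXCL5 were at 0 UMIs in these 53 cells, which allows up to 3.49 CPM. In the tumor cells of reaction 1 myeloid markers summed to 625.3 CPM, and the median of CXCL8 over 6 mice was 187.6 CPM. The part of myeloid RNA in the levels of tumor cells was not tested.

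The transcripts were unevenly spread over cells. The top 10% of monocytes and macrophages for a gene held 66.0% and 56.1% of the CXCL8 UMIs in reactions 1 and 2, 80.0% and 74.8% of the CXCL1 UMIs and 91.5% and 96.6% of the CXCL5 UMIs. CXCL5 was without a UMI in 84.0% and 84.1% of the cells, while a single cell held up to 116 and 245 UMIs of it. CCL20 had no UMI in 95.2% and 96.4% of the cells. IL1A+ cells and GLUT1+ macrophages together were 2.93% and 4.03% of all kept cells and held 20.6% and 19.9% of all CXCL8 UMIs and 21.3% and 25.5% of all CXCL5 UMIs. The part of depth in these shares was not tested, and both classes were deeper than all monocytes and macrophages in reaction 1 and not in reaction 2. Cells with at least 2000 UMIs were also thinned to 2000 UMIs, and cells with fewer were left out of these shares. A CXCL8 UMI would then be present in 92.5% and 84.1% of IL1A+ cells, 83.3% and 74.1% of GLUT1+ macrophages and 62.3% and 47.4% of all monocytes and macrophages. For T and NK cells the same value was 17.9% and 3.64%.

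The chemokines occurred together in the same cells. In reaction 2, the 613 monocytes and macrophages with a CXCL5 UMI had CXCL1 at 373.8 CPM, and the 3236 without one had it at 82.8 CPM, at nearly the same median depth (12181 and 12116 UMIs). CXCL8 stood at 2354.7 and 922.4 CPM in the same cells. The 139 cells of reaction 2 with a CCL20 UMI had CXCL8 at 2841.1 CPM and the 3710 others at 1080.4 CPM. In reaction 1 the cells with CCL20 were deeper (median 5053 against 3063 UMIs) and had CXCL8 at 3215.9 against 1210.7 CPM. These values describe cells of the same libraries and carry no test.

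Across the 36 classes of at least 50 cells from both reactions, the 11364 genes at 20 CPM or more in at least 1 class were ranked by the correlation of their log2(CPM + 10) with each chemokine. These points share libraries and depth, and the correlations are descriptions. CXCL2, CXCL3 and CXCL8 were like each other, with Pearson's r of 0.958 between CXCL8 and CXCL3 and 0.955 between CXCL2 and CXCL3. TLR2, a receptor for bacterial lipoproteins (0.948), and CLEC5A, a myeloid lectin (0.946), came next for CXCL8. CXCL1 had C1QC (0.875) and C1QA (0.87) at the head of its list, subunits of complement C1q whose UMIs also take part in gates. CXCL5 had PPBP (0.89) at the head of its list, another neutrophil-attracting CXC chemokine. CCL20 was most like IL1A (0.794), which defines a gate, then DNAH17 (0.706) and TNIP3 (0.704), an inhibitor of NF-kB signaling.

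CCL20 was also found in T cells. T and NK cells held 24.5% of all CCL20 UMIs of the kept cells in reaction 1 and 61.0% in reaction 2, against 66.2% and 34.4% for monocytes and macrophages. By number, T and NK cells were 23.3% and 39.9% of the kept cells, and monocytes and macrophages 61.2% and 48.7%. In reaction 1 the shares of UMIs were thus close to the shares of cells. In cells with at least 2 UMIs of CD3D, CD3E or CD3G, called CD3+ below, CCL20 stood at 27.4 CPM (24.5 to 30.5) in reaction 1 and 41.6 CPM (39.0 to 44.3) in reaction 2. NK cells, without a CD3 UMI, had 6.69 and 1.29 CPM, and B cells had no CCL20 UMI in 61 and 118 cells, which allows up to 11.2 and 3.41 CPM. Over the 14 mice, CCL20 in CD3+ cells ran from 7.53 to 77.2 CPM with a median of 28.6, and was above the NK cells of the same mouse in 13 mice.

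The ratio of CCL20 to CXCL8 differed between T cells and monocytes and macrophages. For every 100 CXCL8 UMIs, CD3+ cells had 27.9 and 228.2 CCL20 UMIs in reactions 1 and 2, where monocytes and macrophages had 1.96 and 0.965. The same ratio for CXCL2 was 18.6 and 23.9 in CD3+ cells and 20.5 and 20.3 in monocytes and macrophages, and for CXCL3 it was 29.0 and 36.5 against 32.7 and 29.7. In CD3+ cells the ratios of CXCL2 and CXCL3 were thus near those of all monocytes and macrophages, and that of CCL20 was higher. The CCL20 ratio also differed among myeloid states, at 7.38 and 2.06 in IL1A+ cells and 1.7 and 0.896 in C1Q macrophages. The source of these transcripts in the T cells was not tested.

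Within the CD3+ cells, CCL20 was higher in those with a FOXP3 UMI, a gene of regulatory T cells. This split, like those by CD4, CD8 and CCR6, was chosen after the values were seen and is a description. FOXP3+ cells had CCL20 at 53.0 CPM in reaction 1 (307 cells) and 72.8 CPM in reaction 2 (809 cells), and FOXP3- cells at 21.7 and 29.1 CPM, at median depths of 6161 and 4802 UMIs in reaction 1 and 7027 and 7174.5 UMIs in reaction 2. A CCL20 UMI was present in 22.5% and 26.8% of FOXP3+ cells and in 6.65% and 9.48% of FOXP3- cells. In the 12 mice with at least 10 FOXP3+ cells it ran from 33.9 to 151.7 CPM (median 51.9) in FOXP3+ cells and from 2.43 to 49.0 CPM (median 25.6) in FOXP3- cells, and was higher in the FOXP3+ cells of each of the 12. Cells with CD4 and no CD8 UMI stood at 43.2 and 73.2 CPM, and cells with CD8 and no CD4 UMI at 21.2 and 15.0 CPM. CCR6, the receptor of CCL20, followed the same split, with medians of 74.3 CPM in FOXP3+ and 11.4 CPM in FOXP3- cells over the same mice. CD3+ cells with a CCR6 UMI had CCL20 at 91.3 and 123.1 CPM, and those without one at 22.0 and 25.6 CPM, at a greater depth in reaction 1 (7034 against 4938 UMIs) and a similar one in reaction 2 (7192.5 against 7091 UMIs).

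**Figure D3:**
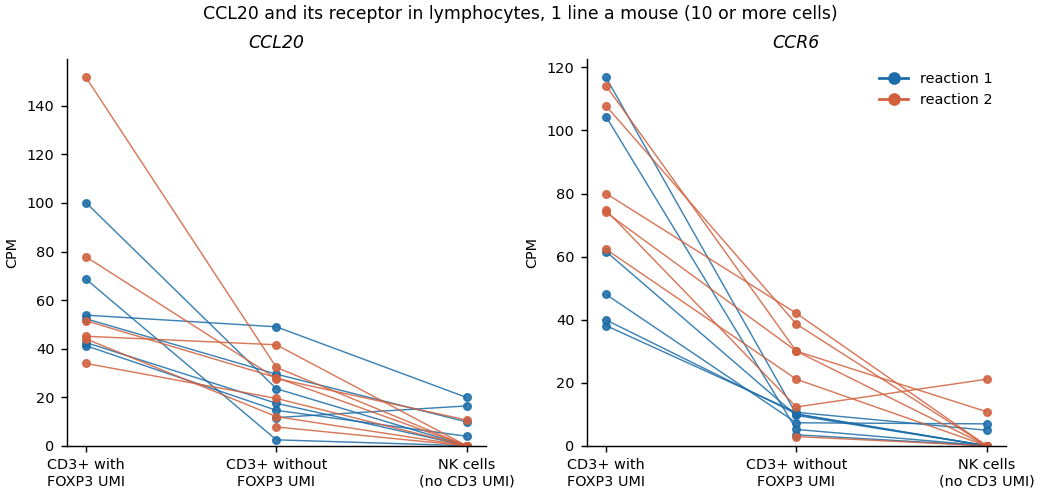
CCL20 (left) and its receptor CCR6 (right) in CPM in CD3+ cells with a FOXP3 UMI, CD3+ cells without one and NK cells, with 1 line for each mouse, coloured by reaction, and points only where a group has at least 10 cells. Every line that reaches the FOXP3+ cells is highest there, in 12 of 12 mice for both genes.

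Of the receptors, CXCR1 and CXCR2 were nearly undetected in these human cells. CXCR2 stood at 0.884 CPM in the monocytes and macrophages of reaction 1 (34 UMIs in 7290 cells) and at 0.628 CPM in reaction 2, CXCR1 at 0.13 and 0.101 CPM, and ACKR1, a scavenging receptor of chemokines, at 0 UMIs. A list of 10 neutrophil genes summed to 65.8 and 84.4 CPM in monocytes and macrophages, of which CSF3R alone, which monocytes also express, gave 59.0 and 77.9 CPM. The study isolated mononuclear cells on a density gradient before the sort. These values therefore do not tell whether the tumors held human neutrophils. CCR6 was the only one of the 4 receptors with enough UMIs to be tested. It stood at 108.6 and 105.6 CPM in B cells, 59.3 and 46.3 CPM in plasmacytoid dendritic cells and 18.4 and 44.1 CPM in CD3+ cells, where monocytes and macrophages had 7.20 and 6.89 CPM. Against the latter, CCR6 was called higher in LAMP3+ dendritic cells (log2 fold change 2.16, adjusted p = 5.61e-05) and in cDC2 (1.75, adjusted p = 2.59e-07). In tumor cells it was called lower (-2.14). Within the monocytes and macrophages CCR6 was higher in C1Q macrophages (1.04, adjusted p = 9.51e-06). It was lower in S100A12+ monocytes (-2.17, adjusted p = 5.15e-06) and was also called lower in the other monocytes (-0.81).

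Among 23 genes that induce these chemokines or respond to NF-kB with them, 15 were called higher and none lower in IL1A+ cells, where 2.16% of all genes were called higher. IL1B, the other form of interleukin-1, rose by 2.78 and IL6 by 2.17 on the log2 scale. IL1A itself (4.97) is counted among the 15, and since it is the gate its call was fixed in advance. GLUT1+ macrophages had 6 of the 23 higher and 3 lower, beside 12% and 14.6% of all genes, with ATF3, a stress-induced transcription factor, at 0.73, PTGS2, which makes prostaglandins, at 0.64, and BIRC3 at -0.81. S100A12+ monocytes had 13 higher and 3 lower, beside 20.8% and 26.4% of all genes, IL1B among the former (1.31) and TNF among the latter (-1.16), while CXCL1 and CXCL5 were lower there. C1Q macrophages had 6 higher and 15 lower, beside 19.0% and 21.4% of all genes, with IL1B at -1.05, while CXCL1 and CXCL5 were higher there. In S100A12+ monocytes and C1Q macrophages most called genes of the list thus moved opposite to CXCL1 and CXCL5. The gates of these classes exclude each other by their share of C1QA, C1QB and C1QC UMIs. The relation of the list to CXCL1 and CXCL5 was not tested. MT1G+ macrophages had 2 of the 23 higher, IL6 (0.86) and SOD2 (0.26), and none lower, beside 1.26% and 4.33% of all genes.

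Of 7 related chemokines on the list, 3 were abundant enough to test in GLUT1+ macrophages and all 3 were called higher there. CXCL6, which also binds CXCR1 and CXCR2, stood at a log2 fold change of 1.59, PPBP at 1.14 and CXCL16, a ligand of CXCR6, at 0.87. In IL1A+ cells CXCL16 rose by 0.84 and PPBP fell by 1.01. PPBP was called lower in cDC2 (-5.69), LAMP3+ dendritic cells (-5.90), mast cells (-3.90), tumor cells (-5.97), S100A12+ monocytes (-2.67), other monocytes (-2.49), CXCL10-high cells (-1.62) and the remaining cells (-0.88), and CXCL5 was called lower in each of these. In cDC1, where CXCL5 was called lower, none of the 7 was called, and in IL1A+ cells and cycling cells (-0.57), where PPBP fell, CXCL5 stood at 1.05 and -0.40 and was not called.

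The effect of maraviroc on the monocytes and macrophages was tested over mice, with one term for each reaction and treatment. None of the 6 genes passed the test in the mean of both reactions, nor did any of 14014 genes (0.0% called by edgeR, none by DESeq2, 510 at an unadjusted p under 0.05). CXCL8 (log2 fold change 0.02 ± 0.13, SE) and CXCL1 (0.05 ± 0.19) stood nearest to 0, and CCL20 stood at -0.58 ± 0.43, CXCL5 at -0.28 ± 0.24, CXCL3 at -0.22 ± 0.14 and CXCL2 at -0.20 ± 0.12, each with an adjusted p of 1.0.

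Within reaction 1, CXCL2, CXCL3 and CCL20 were lower in each maraviroc mouse than in each untreated mouse. CXCL3 stood at 394.7, 511.1, 578.2 and 676.5 CPM in the 4 untreated mice and at 276.5, 316.7 and 323.3 CPM in the 3 maraviroc mice. CXCL2 stood at 252.5, 300.6, 351.1 and 402.4 CPM in the former and at 181.1, 215.2 and 215.4 CPM in the latter. CCL20 stood at 17.6, 23.5, 27.3 and 87.7 CPM in the untreated mice and at 9.19, 12.4 and 13.2 CPM in the maraviroc mice. These groups did not overlap, an order that 3.08% of the genes with a mean of 1 CPM or more shared. The log2 fold changes were -0.87 ± 0.21 for CXCL3, -0.72 ± 0.18 for CXCL2 and -1.77 ± 0.61 for CCL20, and none passed the test over all genes (adjusted p = 0.746 each, edgeR). The adjusted p depended on the tool. By DESeq2 it was 0.0533 for CXCL3 and 0.0609 for CXCL2, with no value for CCL20. By edgeR with all genes of at least 1 count it was 0.06 for CXCL3, 0.0941 for CXCL2 and 0.321 for CCL20. Without the untreated mouse at 87.7 CPM, the change of CCL20 was -1.03. CXCL8 stood at 1116.5, 1411.9, 1573.5 and 1891.2 CPM in untreated and at 1103.0, 1125.1 and 1254.6 CPM in maraviroc mice, and CXCL1 at 153.0 to 222.4 CPM against 141.9 to 187.2 CPM, with overlap in both.

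**Figure D4:**
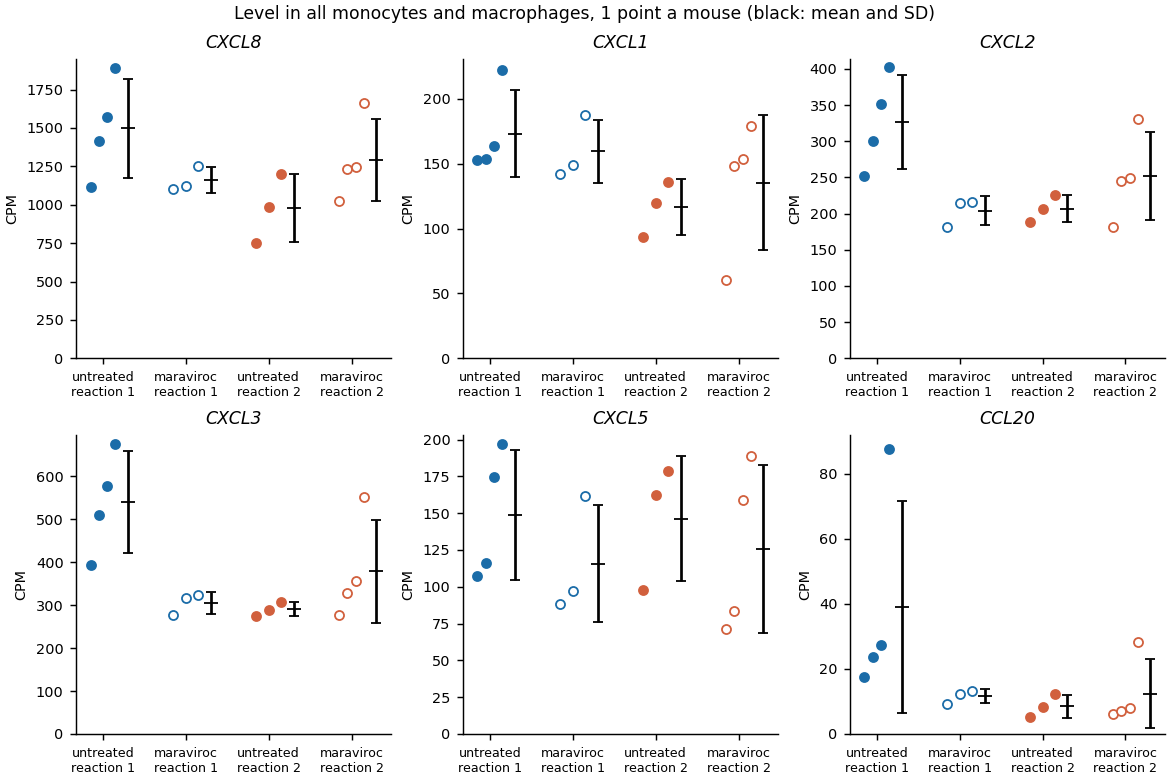
CPM of each chemokine gene in the monocytes and macrophages of each mouse (points, filled for untreated and open for maraviroc) by reaction and treatment, with the mean and SD of each group in black. In reaction 1 the maraviroc mice lie below the untreated mice for CXCL2, CXCL3 and CCL20, and in reaction 2 the groups overlap for all 6 genes.

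In reaction 2 no gene separated the groups. CXCL3 stood at 274.4, 289.1 and 306.9 CPM in the 3 untreated mice and at 277.7, 328.8, 357.0 and 552.2 CPM in the 4 maraviroc mice. CXCL2 stood at 188.6, 206.7 and 225.6 CPM and at 181.9, 244.9, 248.9 and 330.7 CPM, and CCL20 at 5.07, 8.3 and 12.2 CPM and at 6.05, 7.1, 8.06 and 28.2 CPM. CXCL8 stood at 753.3, 988.4 and 1197.2 CPM in untreated and at 1027.3, 1233.0, 1247.8 and 1662.2 CPM in maraviroc mice. For CXCL8, CXCL3, CXCL2 and CXCL1, 3 of the 4 maraviroc mice lay above all untreated mice, and for CXCL2 and CXCL1 the fourth lay below them. The share of all genes with such a partial order is not given here, so it is not read as a result about these genes. For CCL20 1 maraviroc mouse lay above all untreated mice, and the same mouse was highest for CXCL2, CXCL3 and CXCL8. The log2 fold changes were 0.43 ± 0.20 for CXCL3, 0.33 ± 0.17 for CXCL2, 0.60 ± 0.61 for CCL20 and 0.46 ± 0.19 for CXCL8, and none was called. The difference between the effects in reactions 2 and 1 was 1.30 ± 0.29 for CXCL3 (adjusted p = 0.189) and 1.06 ± 0.25 for CXCL2 (adjusted p = 0.202) by edgeR, which called 0.0% of genes there, and DESeq2 called both (adjusted p = 0.0047 and 0.0105) among 68 genes. The reactions differ in depth and in the level of myeloid RNA in lymphoid cells, and the part of either was not tested.

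IL1B, which was picked after its values were seen, also lay apart between the treatments, in opposite directions in the reactions. None of the 23 inducing or NF-kB response genes, IL1B among them, was called in a treatment contrast of all monocytes and macrophages. In reaction 1 it stood at 532.0, 659.4, 734.2 and 1178.1 CPM in the monocytes and macrophages of untreated mice and at 326.8, 329.9 and 348.8 CPM in those of maraviroc mice. In reaction 2 it stood at 243.2, 369.0 and 447.6 CPM in untreated and at 454.5, 457.8, 515.1 and 934.7 CPM in maraviroc mice. All maraviroc mice lay above all untreated mice for 2.57% of the genes with a mean of 1 CPM or more in reaction 2. IL1A+ cells made up 0.613%, 3.94%, 1.36% and 1.01% of the monocytes and macrophages of the untreated mice and 0.576%, 0% and 0.346% of those of the maraviroc mice. In reaction 2 they made up 1.36%, 0.269% and 2.03% in untreated and 0.94%, 3.48%, 1.37% and 0.949% in maraviroc mice. With the IL1A+ cells left out, CXCL3, CXCL2 and CCL20 still did not overlap between the groups of reaction 1. CXCL3 then ran from 390.7 to 602.1 CPM in untreated and 266.0 to 319.8 CPM in maraviroc mice, CXCL2 from 252.2 to 356.4 CPM and 181.1 to 211.8 CPM, and CCL20 from 16.2 to 68.6 CPM and 8.46 to 13.3 CPM. Cells with IL1A remained, since IL1A reached 64.6 CPM in cycling cells, 53.0 CPM in GLUT1+ and 44.4 CPM in MT1G+ macrophages of single mice of reaction 1. The part of cells with IL1A in these differences was not tested.

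By state, the log2 fold change of CXCL3 in reaction 1 was -1.27 in MT1G+ macrophages, -1.18 in S100A12+ monocytes, -1.08 in cycling cells and -1.03 in the remaining cells. It was -0.91 in other monocytes, -0.87 in C1Q macrophages, -0.11 in GLUT1+ macrophages and 0.00 in CXCL10-high cells. That of CXCL2 was -0.44 in GLUT1+ macrophages, -0.57 in CXCL10-high cells, -0.46 in other monocytes and -0.67 in C1Q macrophages. It was -1.18 in S100A12+ monocytes, -0.82 in MT1G+ macrophages, -0.8 in cycling cells and 0.0 in the remaining cells. In reaction 2 the log2 fold change of CXCL3 was 0.96 in S100A12+ monocytes, 0.9 in cycling cells and 0.67 in C1Q macrophages. It was 0.12 in GLUT1+ macrophages, 0.09 in the remaining cells, 0.05 in other monocytes, -0.02 in MT1G+ macrophages and -0.05 in CXCL10-high cells. That of CXCL2 in reaction 2 was 0.84 in S100A12+ monocytes, 0.8 in cycling cells, 0.45 in C1Q macrophages and -0.64 in the remaining cells. It ran from -0.02 in MT1G+ macrophages to 0.11 in CXCL10-high cells in the rest of the states listed. None passed the test, and the states were not compared with each other. Within single states none of the 6 genes was called in any treatment contrast. The share of all genes called there was at most 0.0410%, in the difference between the reactions in MT1G+ macrophages, and 0.0100% in cycling cells and 0.0176% in C1Q macrophages. In CD3+ cells CCL20 ran from 7.53 to 50.5 CPM (median 23.5) in 7 untreated mice and from 9.4 to 77.2 CPM (median 34.7) in 7 maraviroc mice, with wide overlap. Summed over all T and NK cells, the log2 fold change of CCL20 under maraviroc was 0.35 in the mean of both reactions (adjusted p = 1.0).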

How the data were processed

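The authors deposited raw UMI counts per gene and hashtag from Cell Ranger 9.0.1 (GRCh38), without normalization, and used Seurat 5.1.0 downstream. The counts were made from 3' reads of 2 reactions, 133089612 and 175447534 UMIs in all. GEO names the mouse host as the organism, while the counted genes are human. The labels give each reaction and not the treatment, which was read from the hashtag names.

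Hashtags were called with HTODemux in Seurat 5.3.0 (R 4.3.3) at positive quantile 0.99, and doublets by hashtag were left out. No other doublet caller was run. Cells with above 600 and at most 6000 genes and mitochondrial UMIs under the study's limit were kept. A cell took the lineage with the most of 10 markers, if at least 3 were detected and 1 more than for the next lineage.

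UMIs were summed per mouse and class, for mice with at least 10 cells and classes with at least 4 mice, and tested with edgeR 4.0.16 (TMM, filterByExpr, quasi-likelihood, Benjamini-Hochberg adjustment over all genes, threshold 0.05), with DESeq2 1.42.0 as an alternative. State fits have the mouse as a block. Treatment fits have 1 coefficient per reaction and treatment. Levels are CPM of summed UMIs with exact Poisson intervals at 95%. The upper limit for a count of 0 is 3 counts. The named genes were the 6 chemokines, the receptors and, of 2 further lists, those among the 3 largest changes past the threshold, and for each chemokine the 3 genes most like it. IL1B by mouse and CSF3R were added after their values were seen. Members, lists and gates were chosen with earlier results of these data known. Each mouse carried 1 hashtag, and mice were the replicates.

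Results were recomputed with above 1000 genes per cell, under 8% mitochondrial UMIs, hashtag quantile 0.95, a stricter lineage gate, RLE scaling, no low-count filter, DESeq2, gates without order, each reaction by itself, no reaction term and each mouse left out. Leaving out mice in the IL1A+ comparison was added after seeing the data. On simulated counts with a log2 change of 1 in 200 genes, edgeR found 156 of 200 in the treatment fit of monocytes and macrophages (13784 genes, 9 false calls) and 49 in the IL1A+ fit (11624 genes, 2 false calls), so many changes of that size would be missed in the IL1A+ cells. The simulated counts had no reaction effect, and for treatment only the mean of both reactions was tested on them. They give no rate for single reactions or for the difference between them. No sequence or coordinates were used, since no human reference was used here.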

Additional observations from a re-analysis of the deposited data

Results flagged for a closer look

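Of 28 groups of 4 to 7 mice examined, 8 had a mouse whose distance from the rest passed Dixon's 95% criterion, which chance passes in about 1 group in 20. The groups are not independent, since they share mice and the same CCL20 value can count in more than 1 group. Groups of 7 also pool both reactions. All values are CPM in the monocytes and macrophages of a mouse. An untreated mouse of reaction 1 had CCL20 at 87.7, highest of the 7 untreated mice and of the 4 of its reaction, and CXCL1 at 222.4, highest of those 4. The same mouse had the highest share of IL1A+ cells of its reaction, 3.94%, and without those cells its CCL20 was 68.6. A maraviroc mouse of reaction 2 had the highest CXCL8 (1662.2) and CXCL3 (552.2) of the 7 maraviroc mice and the highest CCL20 (28.2) of both those 7 and the 4 of its reaction. IL1A+ cells made up 3.48% of its monocytes and macrophages. Another maraviroc mouse of reaction 2 had the lowest CXCL1 of the 7, at 60.3.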

How the results depend on the processing

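No paired analysis was possible because, between treatments, the labels give each group a single replicate number and a hashtag number that occurs in both reactions marks different mice. The state comparisons already set cells of the same mouse against each other. The highest state of each gene was the IL1A+ cells or the GLUT1+ macrophages in 12 of 12 cases under every setting run. The numbers below count which of the 6 genes passed the threshold. The cause of each change was not tested, except that gates without order change the cells of a class by construction and a single reaction holds fewer mice. Of the counts recomputed with all mice, 390 stayed within 1.5 times of the reported count and 40 did not.

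cDC1 had 4 genes lower, but 1 at hashtag quantile 0.95, 2 with RLE scaling, 1 by DESeq2 and 1 in reaction 2 alone, and cDC2 had 0 higher, but 1 in reaction 1 alone. C1Q macrophages had 2 higher, but 4 without gate order, and 2 lower, but 1 with the stricter gate, by DESeq2 and in each reaction alone, and 0 without gate order. CXCL10-high cells had 1 higher, but 0 with all genes of at least 1 count, by DESeq2 and in each reaction alone, and 5 lower, but 3 in reaction 2 alone and without gate order. GLUT1+ macrophages had 3 of their 6 in reaction 2 alone. In place of 0 higher, LYVE1+ macrophages had 1 with RLE scaling and in reaction 2 alone, and S100A12+ monocytes had 2 in reaction 2 alone. Cycling cells had 2 lower, but 4 with the stricter gate and with RLE scaling and 5 with all genes of at least 1 count. Without gate order, other monocytes had 3 higher and 1 lower in place of 0 and 6, with log2 fold changes of 0.41 for CCL20, 0.32 for CXCL2, 0.54 for CXCL3, 0.28 for CXCL5 and 0.54 for CXCL8. Among all genes, DESeq2 called 1629 in cDC1, 4577 in C1Q macrophages and 2075 in CXCL10-high cells, in either direction. The shares of all genes by direction under these settings are not given here. The counts in this paragraph are therefore not read as results about the 6 genes.

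For treatment no gene of the 6 was called by edgeR as reported, with the low-count filter. With all genes of at least 1 count, the difference between the reactions was called for 2 genes in all monocytes and macrophages, 4 in C1Q macrophages, 2 in MT1G+ macrophages, 5 in S100A12+ monocytes, 5 in cycling cells and 3 in other monocytes. Among all genes that setting called 265 in C1Q macrophages, 29 in MT1G+ macrophages, 62 in S100A12+ monocytes, 184 in cycling cells and 151 in other monocytes. In all monocytes and macrophages it called at most 68. DESeq2 called 2 of the 6 in all monocytes and macrophages, 2 in C1Q macrophages and 1 in cycling cells, beside 68, 14 and 22 of all genes. The mean treatment effect was called for 1 gene each in MT1G+ macrophages, S100A12+ monocytes, cycling cells, other monocytes and remaining cells with all genes of at least 1 count. Among all genes 30, 32, 62, 25 and 26 were called there, in the same order. In all monocytes and macrophages CXCL1 stood at -0.03 and CXCL8 at -0.05 without a reaction term, and CXCL8 at -0.00 at hashtag quantile 0.95.

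With 1 mouse left out at a time, the difference between the reactions was called for 0 to 1 gene in C1Q macrophages, in S100A12+ monocytes and in cycling cells. It was 1 without a maraviroc mouse of reaction 2 in each of the first 2 classes, and without an untreated or a maraviroc mouse of reaction 1 in cycling cells. IL1A+ cells had 5 to 6 higher. The log2 fold changes ran from -2.01 to -1.03 for CCL20 in reaction 1 and -0.26 to 0.96 in reaction 2, -0.02 to 0.17 for CXCL1 and -0.05 to 0.10 for CXCL8 in the mean effect, and -0.43 to 0.02 for CXCL5 in reaction 2 and -0.04 to 0.59 in its difference.

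Over all genes, the number called moved by more than 1.5 times mostly in single reactions. In reaction 1 alone it was 1211 in place of 3759 in LAMP3+ dendritic cells, 1553 in place of 3644 in cDC2, 1912 in place of 4054 in mast cells, 2713 in place of 5263 in C1Q macrophages (8020 without gate order), 944 in place of 2230 in CXCL10-high cells, 763 in place of 2257 in LYVE1+ macrophages, 177 in place of 737 in MT1G+ macrophages (1373 without gate order), 3812 in place of 5918 in S100A12+ monocytes, 3673 in place of 5917 in cycling cells and 3567 in place of 6123 in other monocytes. In reaction 2 alone it was 1635 in place of 3367 in GLUT1+ macrophages and 1242 in place of 2032 in the remaining cells, and at hashtag quantile 0.95 it was 1196 in place of 1928 in cDC1. In all monocytes and macrophages the difference between the reactions had 0 calls by edgeR and 68 by DESeq2, and with all genes of at least 1 count a treatment contrast within a state had up to 265, in C1Q macrophages, in place of 2.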
